A study of Mus musculus with 8 samples.

Results

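The T cell receptor genes examined here are Cd3d, Cd3e, Cd3g, Cd247, Cd4, Cd8a, Cd8b1, Lat, Zap70 and Lck, 10 of the 21878 gene symbols in the count table. They were chosen by name, as the invariant chains of the receptor, its coreceptors and the first enzymes and adaptor that act on it, and all 10 had reads in every sample. The data are read counts of whole peripheral blood from wild-type female C57BL/6 mice aged 6 to 8 weeks. In the stress group (n = 4) the mice were restrained for 6 hours in a ventilated tube, and in the control group (n = 4) littermates stayed in their cage. Both groups went without food and water for that time, so that the comparison asks what restraint added to the fast. The labels do not state that each library came from a separate mouse, and if any did not, the p-values measure only the spread between these samples.

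The receptor on a T cell binds antigen with a pair of variable chains that have almost no tail inside the cell. The signal is carried by the CD3 chains encoded by Cd3d, Cd3e and Cd3g and by the zeta chain encoded by Cd247, whose tails hold tyrosines for phosphorylation. CD4 and CD8 bind the MHC molecule that presents the antigen and bring the kinase Lck to these tails. Zap70 then docks on the phosphorylated tails and phosphorylates Lat, a membrane adaptor on which the later signalling proteins assemble.

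Blood was not sorted, so the counts sum over all cells in it, and red cell transcripts took most of them. Control libraries held 31471145 to 39014775 counts and stress libraries 25978683 to 29655725. The haemoglobin genes held 51.9% to 63.8% of the control counts and 61.2% to 75.5% of the stress counts. Stress replicate 3 stood apart with the highest haemoglobin share and the fewest counts outside these genes, 6355715. The 10 genes had 403 to 5468 counts each in any sample.

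None of the 10 genes passed the test for a difference between the groups, in levels set relative to the typical gene of the blood. Values are CPM, counts scaled to a fixed library size, with the size corrected by TMM, which takes most genes as the same in both groups. The quasi-likelihood test of edgeR was run on 11718 genes, and its p-values were adjusted over all of them by the Benjamini-Hochberg method. At an adjusted p below 0.05, 0 of the 10 were lower and 0 higher in the stress group, where 3.69% of all tested genes were lower and 10.4% higher. An unadjusted p under 0.05 was reached by 0 of the 10, and DESeq2 and limma-voom each called 0. The thresholds of the study, a log2 fold change above 1 in size and an adjusted p below 0.01, are stricter, so 0 of the 10 could pass them on this fit. By this rule 0.0171% of all tested genes were lower and 1.69% higher. The median log2 fold change was 0.02 over the 10 genes and -0.03 over all tested genes, with 5 genes above 0 and 5 below. The groups overlapped in every one of the 10, where in 9.88% of all tested genes the stress samples all lay below the control samples and in 11.1% they all lay above.

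The 95% intervals of these fold changes show which sizes the data leave room for. The lowest bound among the 10 genes was a log2 fold change of -0.36, which is a stress level 0.779 times that of the control group. The highest bound was 0.73 for Lat and 0.43 for the other 9, or 1.35 times the control level. A change of 2-fold in either direction lay outside all 10 intervals on this scale.

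**Figure D1:**
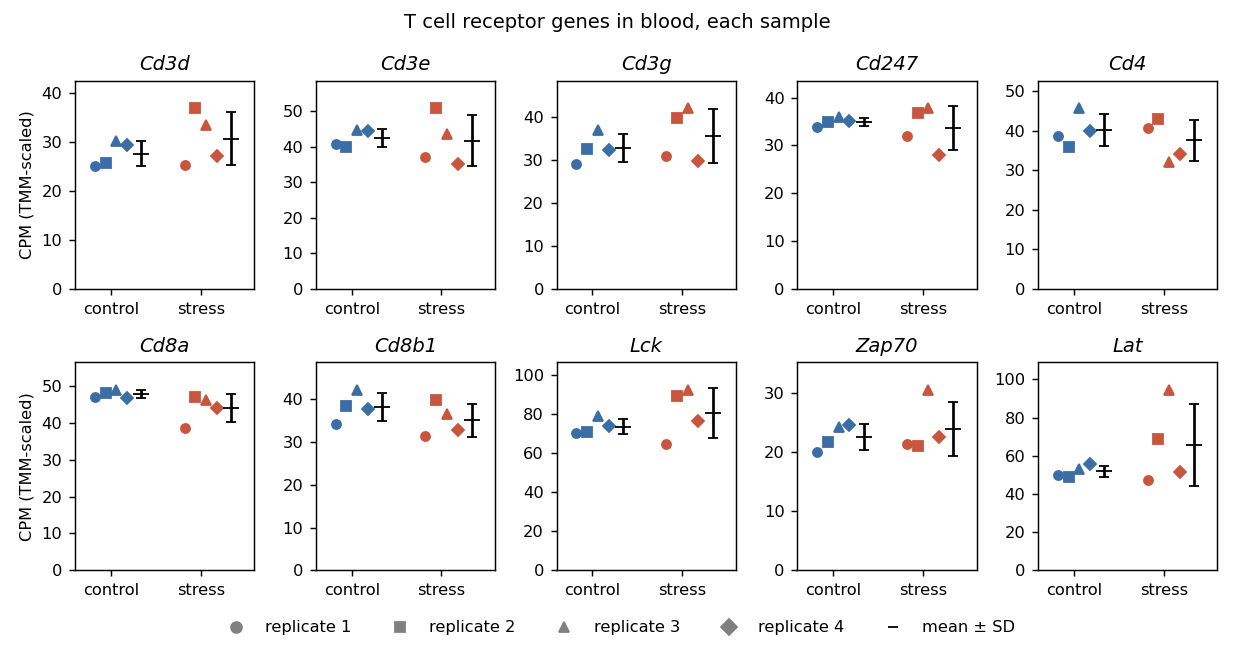
Level of the 10 genes in each sample, in CPM after TMM scaling, with the control group in blue and the stress group in red. The marker shape gives the replicate number, the black bar gives the mean ± SD of 4 samples, and in every panel the groups overlap.

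The 3 CD3 genes are neighbours on chromosome 9. On GRCm38 in the GENCODE M21 annotation, Cd3g (ENSMUSG00000002033.14) lies at 44969572 to 44980431 on the minus strand, Cd3d (ENSMUSG00000032094.8) at 44981786 to 44987339 on the plus strand and Cd3e (ENSMUSG00000032093.7) at 44998740 to 45009627 on the minus strand. Their chains pair as epsilon with delta and epsilon with gamma. Cd3e was at 40.8, 39.8, 44.7 and 44.4 CPM in control replicates 1 to 4 and at 37.1, 50.8, 43.6 and 35.03 CPM in stress replicates 1 to 4. The stress samples lay on both sides of the control samples. The mean was 42.4 ± 2.48 CPM in the control group and 41.6 ± 7.13 CPM in the stress group (SD, n = 4 each), and the log2 fold change was -0.03 (standard error 0.12, adjusted p = 0.902, edgeR).

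Cd3d was at 25.1, 25.8, 30.2 and 29.3 CPM in the control samples and at 25.2, 36.9, 33.5 and 27.1 CPM in the stress samples. Stress replicates 2 and 3 were above all control samples, and the other 2 were within their range. Its log2 fold change was 0.15 (standard error 0.13, adjusted p = 0.458, edgeR). Cd3g went from 32.8 ± 3.26 to 35.7 ± 6.25 CPM (SD, n = 4 each), with stress replicates 2 and 3 again the highest of the 8 samples at 39.9 and 42.1 CPM (log2 fold change 0.12, standard error 0.13, adjusted p = 0.576, edgeR, and 0.047 without stress replicate 3).

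Cd247, at 165788681 to 165877277 on the plus strand of chromosome 1, encodes the zeta chain, which dimerises in the receptor and is also used by receptors of NK cells. The control samples lay closely together, at 33.9, 34.9, 36.0 and 35.01 CPM, and the stress samples were at 32.1, 36.7, 37.8 and 27.9 CPM. The means of 34.9 ± 0.865 and 33.6 ± 4.54 CPM (SD, n = 4 each) differed by -0.06 on the log2 scale (standard error 0.11, adjusted p = 0.76, edgeR), and by -0.10 without stress replicate 3. The exons of Pou2f1, a transcription factor gene on the opposite strand, cover 3007 bases of the exons of Cd247, or 56.4% of them. Whether the authors counted reads by strand is not stated, and Pou2f1 fell by 0.74 on the log2 scale (adjusted p = 0.0059, edgeR), so the value of Cd247 is uncertain. Smaller overlaps were found for Cd247 with a processed transcript on its own strand (3.87% of its exon bases), for Cd3e with an antisense transcript (3.31% of its exon bases) and for Lat and Lck with microRNA genes (2.71% and 0.854%), and the other 6 genes share no exon bases with another gene.

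The sequences before the starts of the CD3 genes and Cd247 are shown because these 4 genes encode the chains that carry the signal and are made together in T cells. They are the 250 bases upstream of each start in RefSeq (GRCm38.p6), where 8 of the 10 genes had 11 entries (Cd4 and Cd8b1 had none). Capitals mark matches to GGAAGT or its reverse complement ACTTCC, a core of sites for Ets factors. Cd3d, Cd3e and Cd247 hold 1 match each and Cd3g none.
Cd3d (chr9:44981536-44981785, plus strand): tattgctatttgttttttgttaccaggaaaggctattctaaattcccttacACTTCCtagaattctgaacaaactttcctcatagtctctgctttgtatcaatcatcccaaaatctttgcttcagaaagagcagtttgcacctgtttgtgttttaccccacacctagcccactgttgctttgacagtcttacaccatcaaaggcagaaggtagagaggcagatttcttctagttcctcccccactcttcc
Cd3e (chr9:45009612-45009861, minus strand): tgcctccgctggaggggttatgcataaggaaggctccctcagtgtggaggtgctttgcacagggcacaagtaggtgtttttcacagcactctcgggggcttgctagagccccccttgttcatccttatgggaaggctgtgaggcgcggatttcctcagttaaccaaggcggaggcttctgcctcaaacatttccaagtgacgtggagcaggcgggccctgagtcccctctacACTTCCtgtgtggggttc
Cd3g (chr9:44980432-44980681, minus strand): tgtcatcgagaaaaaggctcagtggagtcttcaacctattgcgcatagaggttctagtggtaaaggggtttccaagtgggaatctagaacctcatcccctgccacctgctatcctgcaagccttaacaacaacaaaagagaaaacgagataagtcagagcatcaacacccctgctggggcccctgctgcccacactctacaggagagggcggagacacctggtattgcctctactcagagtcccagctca
Cd247 (chr1:165788431-165788680, plus strand): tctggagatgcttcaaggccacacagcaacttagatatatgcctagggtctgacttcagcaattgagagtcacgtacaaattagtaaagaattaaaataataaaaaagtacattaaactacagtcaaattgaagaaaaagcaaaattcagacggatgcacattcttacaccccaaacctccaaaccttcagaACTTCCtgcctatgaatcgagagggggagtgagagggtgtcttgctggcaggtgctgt
The Ets core was present in 6 of the 11 windows (54.5%) and in 19.7% of 32851 windows of all genes, and TGTGGT or its reverse complement ACCACA, a core of sites for Runx factors, in 2 of the 11 (18.2%) and in 14.05% of all. A glucocorticoid response element, searched as AGAACANNNTGTTC on both strands, was in 0 of the 11 windows and in 0.0304% of all. The single site TGTTCT or AGAACA, which overlaps the full element, was in 1 of the 11, that of Cd8a, and in 16.1% of all. These are matches of letters, and no binding was measured. Lck and Zap70 have more than 1 window each, so the 11 windows are not 11 separate genes.

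The coreceptor genes mark the helper (Cd4) and cytotoxic (Cd8a, Cd8b1) T cells. Cd8a and Cd8b1, which encode the 2 chains of CD8, lie next to each other on chromosome 6 at 71373427 to 71379173 and at 71322788 to 71337494, both on the plus strand, and Cd4 lies on the minus strand of the same chromosome at 124864692 to 124888221. Cd4 was at 38.7, 36.0, 45.7 and 40.03 CPM in the control samples and at 40.8, 43.1, 32.2 and 34.2 CPM in the stress samples. Stress replicates 3 and 4 were below all control samples and replicates 1 and 2 were not. The log2 fold change was -0.09 (standard error 0.12, adjusted p = 0.635, edgeR) and -0.012 without stress replicate 3.

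Cd8a had the smallest spread of the coreceptors, with 46.9, 48.1, 48.9 and 46.8 CPM in the control samples and 38.5, 47.0, 46.0 and 43.9 CPM in the stress samples. Stress replicate 1 was the lowest, and only replicate 2 reached into the control range. The means of 47.7 ± 1.02 and 43.8 ± 3.77 CPM (SD, n = 4 each) differed by -0.12 on the log2 scale (standard error 0.10, adjusted p = 0.429, edgeR). Cd8b1 was at 38.1 ± 3.33 CPM in the control group and 35.01 ± 3.79 CPM in the stress group (SD, n = 4 each), again a difference of -0.12 (standard error 0.11, adjusted p = 0.477, edgeR).

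Lck, the kinase that starts the signal, lies on the minus strand of chromosome 4 at 129548344 to 129573641. It was at 70.5, 71.0, 79.0 and 74.0 CPM in the control samples and at 64.5, 89.2, 92.6 and 76.7 CPM in the stress samples. The lowest and the 2 highest of the 8 values were all stress samples. The log2 fold change was 0.13 (standard error 0.13, adjusted p = 0.509, edgeR) and 0.077 without stress replicate 3. Zap70, the kinase that reads the phosphorylated tails, lies on the plus strand of chromosome 1 at 36761798 to 36782818. It was at 19.97, 21.7, 24.3 and 24.5 CPM in the control samples and at 21.3, 21.1, 30.6 and 22.6 CPM in the stress samples. Stress replicate 3 was above the other 7 samples, which lay between 19.97 and 24.5 CPM. Its log2 fold change was 0.07 (standard error 0.13, adjusted p = 0.752, edgeR) and -0.046 without that sample (adjusted p = 0.79).

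Lat lies on the minus strand of chromosome 7 at 126363824 to 126369570. It had the largest fold change of the 10 genes, and it is also made in platelets, where it serves the collagen receptor, and in NK cells. It was at 50.1, 48.8, 52.9 and 55.5 CPM in the control samples and at 47.4, 69.0, 94.6 and 51.5 CPM in the stress samples. Stress replicates 2 and 3 were above all control samples and replicate 1 was below them. The means of 51.8 ± 2.97 and 65.6 ± 21.5 CPM (SD, n = 4 each) differed by 0.34 on the log2 scale (standard error 0.18, adjusted p = 0.231, edgeR). Without stress replicate 3 it was 0.13 (adjusted p = 0.526). In that sample the 10 NK cell markers summed to 157 CPM, against 77.7 to 85.6 CPM in the other stress samples and 90.9 to 140.8 CPM in the control samples, and 54.6 of the 157 CPM came from Gzma, a granzyme. The 11 platelet markers summed to 4280 CPM there, against 3669 to 3989 CPM in the other stress samples and 1610 to 2402 CPM in the control samples. The part of these cells in the Lat and Zap70 values was not tested.

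Levels were compared between genes per kilobase of annotated exon. In RPKM (TMM-scaled CPM divided by the exon length in kilobases) Cd8b1 and Lck led in the control group at 25.7 ± 2.24 and 25.1 ± 1.33, followed by Lat at 18.7 ± 1.07, Cd3d at 15.2 ± 1.39 and Cd8a at 13.1 ± 0.28 (SD, n = 4 each). Then came Cd3e at 10.4 ± 0.608, Cd3g at 10.03 ± 0.996, Cd4 at 9.95 ± 1.02, Zap70 at 7.57 ± 0.733 and Cd247 at 6.56 ± 0.162. The place of Cd247 is uncertain, since it shares 56.4% of its exon bases with Pou2f1 and the use of strand is not stated. The control ranges of Cd8b1 and Lck overlapped, as did those of Cd3e, Cd3g and Cd4 and those of Zap70 and Cd247, so that the spread did not tell these neighbours apart. The ranges of the other neighbours in this order did not overlap. In the stress group Lck came first at 27.6 ± 4.37 RPKM, then Lat at 23.7 ± 7.77 and Cd8b1 at 23.6 ± 2.55 (without stress replicate 3, 20.2 ± 4.14 for Lat and 23.3 ± 3.03 for Cd8b1, n = 3), and Zap70 and Cd247 were again last at 7.99 ± 1.51 and 6.31 ± 0.852 (SD, n = 4 each).

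With TMM scaling, the SD of the CPM was higher in the stress group than in the control group in 10 of the 10 genes, as in 77.9% of all tested genes. Scaled by total counts alone, it was higher in the stress group in 0 of the 10 and in 29.3% of all tested genes. Averaged over the 10 genes, the TMM-scaled log2 CPM of stress replicates 2 and 3 stood 0.17 and 0.19 above each gene's mean over the 8 samples, and that of stress replicates 1 and 4 stood 0.16 and 0.14 below it. The control samples stood between -0.10 and 0.09. Cd4 was the exception in stress replicate 3, where it stood 0.26 below its own mean while Lat stood 0.73 above its own. The order of the stress samples also depended on the scaling. On total counts alone Cd3e was at 29.7, 36.9, 22.1 and 38.5 CPM in stress replicates 1 to 4. Stress replicate 4 was then the highest stress sample for each of the 10 genes.

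**Figure D2:**
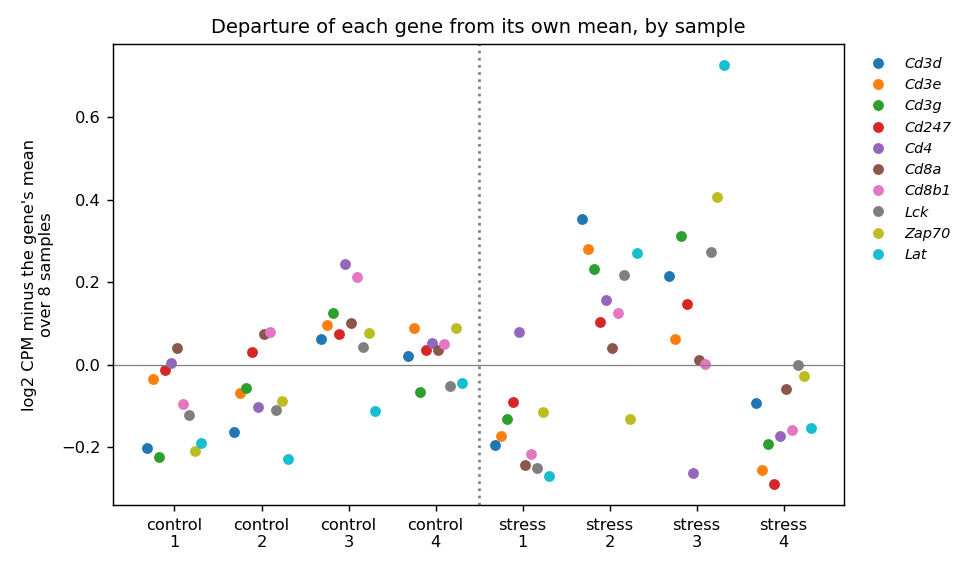
Log2 CPM (TMM scale) of each gene minus that gene's mean over the 8 samples, one column of points per sample and one colour per gene. The order of the stress samples differs on total counts alone. Most genes are above 0 in stress replicates 2 and 3 and below 0 in stress replicates 1 and 4, and Lat reaches 0.73 in stress replicate 3.

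The genes closest to the mean pattern of the 10 were sought among the tested genes with a mean of at least 1 CPM, by the root mean square difference of log2 CPM over the 8 samples after centring each gene. They were Nsa2 (0.043), Rrp36 (0.050), Farsa (0.058), Rrp7a (0.058) and Npm1 (0.061). The 10 genes themselves lay 0.076 (Cd3g) to 0.22 (Lat) from their own mean pattern.

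The direction of the comparison depended on how the libraries were scaled. With total counts as the only scaling, the median over all tested genes was -0.82 on the log2 scale and that over the 10 genes -0.81. On that scale all 10 were below 0, and Cd3e, Cd247, Cd4, Cd8a and Cd8b1 fell, with log2 fold changes of -0.86 to -0.95 and adjusted p-values of 0.0215 to 0.032 (edgeR). Cd3e was then at 57.6 ± 15.6 CPM in the control group and 31.8 ± 7.52 CPM in the stress group (SD, n = 4 each), and Lat, at 70.03 ± 17.4 and 48.2 ± 7.72 CPM, had the smallest change at -0.54 (adjusted p = 0.151). Over all tested genes 5811 (49.6%) were lower and 52 higher on this scale, against 432 lower and 1222 higher with TMM. When libraries were scaled by their counts outside the haemoglobin genes, the median was -0.43 for all tested genes and -0.39 for the 10, of which 4 fell (Cd247, Cd4, Cd8a and Cd8b1), where 3946 genes (33.7%) were lower and 551 higher over all. Relative to the median of all genes, that of the 10 lay higher by 0.046 with TMM, by 0.014 on total counts and by 0.035 on counts outside the haemoglobin genes. From counts of whole blood alone, fewer T cells and less RNA per T cell cannot be told apart. Neither can be told apart from more RNA of other cells. By flow cytometry the study reported a sharp drop of T cell numbers in blood after the stress. The part of that drop in the values here was not tested. From the same sequencing, the study also reported lower expression in gene terms of T cell activation. Those terms were not analysed here.

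**Figure D3:**
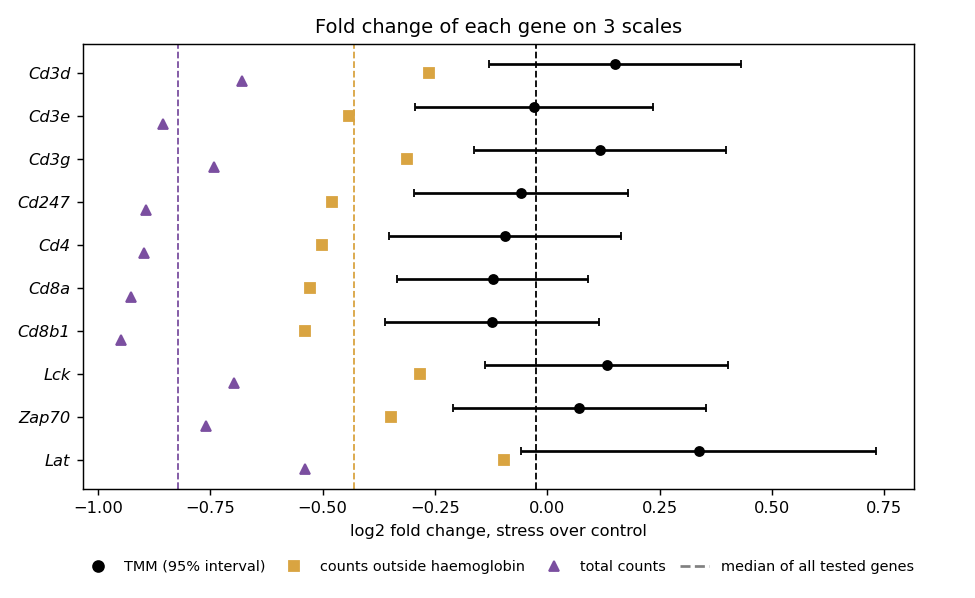
Log2 fold change of each gene, stress over control, with TMM scaling (black, with the 95% interval), scaled by counts outside the haemoglobin genes (yellow) and scaled by total counts (purple). Dashed lines give the median of all tested genes on the same scale, at -0.03, -0.43 and -0.82, and the genes lie around the line of their own scale.

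Ratios of reads within a sample need no scaling between libraries, and 14 were compared between the groups with a two-sided exact permutation test, whose smallest p with 4 against 4 samples is 0.0286. After adjustment over the 14 ratios, 0 passed 0.05, and 4 had the smallest p. Reads of Cd8a per read of Cd4 were 1.21, 1.34, 1.07 and 1.17 in the control samples and 0.945, 1.09, 1.43 and 1.28 in the stress samples, so that the stress samples lay on both sides of the control samples. The difference of the mean log2 ratio, -0.03 (exact p = 0.83), was smaller than the spread within either group.

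Among the other members set against Cd3e, 2 had all stress samples above all control samples. In TMM-scaled levels, the stress samples all lay above the control samples in 11.1% of all tested genes and all below in 9.88%. That share was not computed for ratios of all genes to Cd3e, and the ratios here have Cd3e in common. Reads of Cd3d per read of Cd3e were 0.615, 0.648, 0.676 and 0.66 in the control samples and 0.681, 0.727, 0.769 and 0.774 in the stress samples, a difference of 0.18 on the log2 scale (exact p = 0.0286, adjusted 0.1). The step is small, and the lowest stress sample was just above the highest control sample. Reads of Lat per read of Cd3e were 1.23, 1.23, 1.18 and 1.25 in the control samples and 1.28, 1.36, 2.17 and 1.47 in the stress samples (difference 0.33, exact p = 0.0286, adjusted 0.1), and the difference was 0.16 without stress replicate 3. The ratios of Cd3g, Cd247, Cd4, Cd8a, Cd8b1, Zap70 and Lck to Cd3e overlapped between the groups, with differences between -0.08 and 0.16 and exact p-values of 0.143 to 0.743.

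Cd3e was also set against a single gene each of neutrophils, platelets, B cells and NK cells. The ratios to the neutrophil and platelet genes did not overlap between the groups. These genes, S100a8 and Itga2b, rose by 1.49 and 0.99 with TMM, and Cd3e was at -0.03, so these ratios are not separate evidence. Reads of Cd3e per read of S100a8, a calcium-binding protein of neutrophils, were 1.75, 1.87, 3.001 and 1.94 in the control samples and 0.773, 1.07, 0.592 and 0.572 in the stress samples. The log2 ratio went from 1.06 ± 0.352 to -0.46 ± 0.418 (SD, n = 4 each), a difference of -1.52 (exact p = 0.0286, adjusted 0.1). Reads of Cd3e per read of Itga2b, the platelet integrin that binds fibrinogen, were between 0.0702 and 0.114 in the control samples and between 0.0391 and 0.0495 in the stress samples (difference -1.06, exact p = 0.0286, adjusted 0.1). The ratio to Cd79a, a chain of the B cell receptor, overlapped between the groups, with a difference of 0.19 (exact p = 0.571) and of -0.016 without stress replicate 2. The ratio to Ncr1, the NK cell receptor NKp46, also overlapped (difference 0.53, exact p = 0.2), with a difference of 0.29 without stress replicate 2. Without stress replicate 3 it was 0.70, and the groups no longer overlapped (exact p = 0.0571, the smallest that 4 against 3 samples allow).

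**Figure D4:**
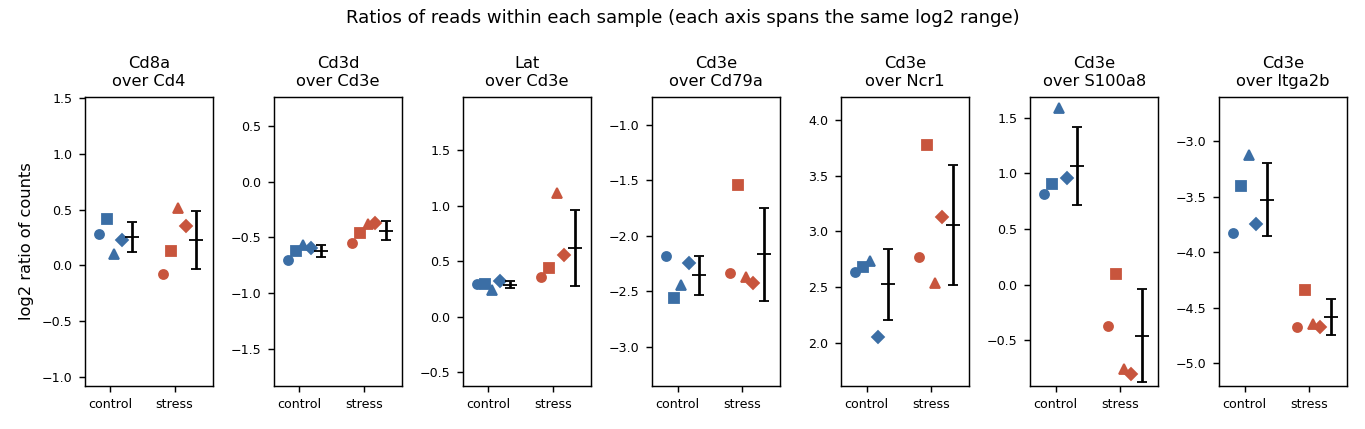
Log2 ratio of the read counts of gene pairs within each sample, control in blue and stress in red, with the mean ± SD of 4 samples in black; each axis spans the same range of log2 units. The ratios of Cd3e to S100a8 and to Itga2b do not overlap between the groups (adjusted p = 0.1, exact permutation test). Those of Cd8a to Cd4 and of Cd3e to Cd79a overlap.

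Other genes of T cells did not pass the test either. Of 13 further T cell markers, such as the adhesion receptor Cd2, the costimulatory receptor Cd28 and the transcription factors Tcf7 and Lef1, 13 were tested and 0 passed (edgeR), with 1 lower at an unadjusted p under 0.05 and 1 called lower by DESeq2 and 0 by limma-voom. Their median log2 fold change was -0.14, and 12 of them were below 0. The gene with the smallest p was Camk4, a calcium-dependent kinase, at -0.56 (adjusted p = 0.0519), followed by Bcl11b (-0.25, adjusted p = 0.311) and Cd27 (-0.24, adjusted p = 0.325), and Trat1, an adaptor that binds the receptor, was at 0.06 (adjusted p = 0.844). All 13 were called lower on total counts alone, against 49.6% of all tested genes. With TMM their summed level was 704 to 758 CPM in the control samples and 575 to 773 CPM in the stress samples, where the 10 receptor genes summed to 389 to 440.96 and 369 to 489.5 CPM.

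Markers of the other cells in the blood moved in both directions on the TMM scale, where 10.4% of all tested genes rose and 3.69% fell. Of 10 B cell markers 6 fell (median log2 fold change -0.45), led by the complement receptor Cr2 (-0.79), the IgE receptor Fcer2a (-0.72) and the inhibitory receptor Cd22 (-0.72). Of 10 NK cell markers 1 fell, the activating receptor Klrk1 (-0.44, adjusted p = 0.0486, edgeR, with 0 called by limma-voom), and the median was -0.19, with Ncr1 at -0.58 (adjusted p = 0.113) and Gzma at 0.14 (adjusted p = 0.843). All 11 platelet markers rose (median 0.99), as did 8 of 9 tested neutrophil markers (median 1.49) and 8 of 10 markers of classical monocytes (median 1.51). Those with the smallest p were the receptor chains Gp1ba (0.90), Gp5 (1.00) and Gp1bb (1.21) of platelets, S100a8 (1.49), S100a9 (1.496) and Lcn2 (2.12) of neutrophils, and F13a1 (1.27), Chil3 (2.89) and Lyz2 (1.32) of monocytes. Of 8 dendritic cell markers 3 rose, Xcr1 (1.48), Cd209a (1.41) and Flt3 (1.29), from control means of 0.712 to 1.19 CPM. On total counts alone the medians were -1.24 for B cells, -1.02 for NK cells, -0.92 for the further T cell markers, 0.23 for platelets, 0.74 for neutrophils and 0.75 for monocytes. The median over all tested genes was -0.82 on that scale, and 49.6% of them were lower. There, 0 platelet markers passed, while 0 dendritic cell markers were higher and 2 were lower. The part of these cells in the values of the receptor genes was not tested.

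**Figure D5:**
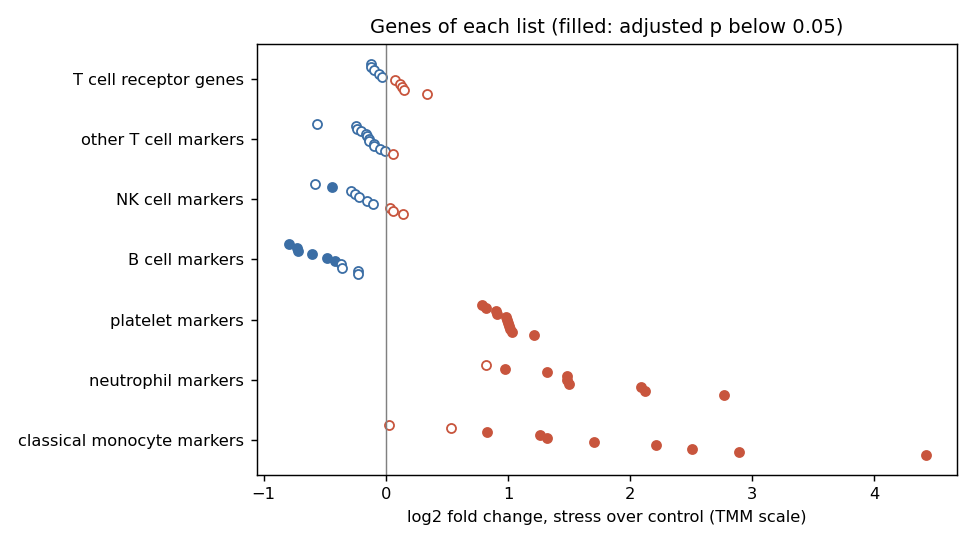
Log2 fold change of each tested gene in 7 lists, stress over control on the TMM scale, with red above 0 and blue below 0 and filled points for an adjusted p below 0.05. The 10 T cell receptor genes lie between -0.12 and 0.34 with no filled point, the B cell markers lie below 0 and the platelet, neutrophil and monocyte markers above it.

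Downstream of the receptor, of 21 kinases, adaptors and enzymes of the pathway, 2 rose, 2 fell and 17 did not pass (median log2 fold change 0.06), where 14.1% of all tested genes passed in either direction. On total counts alone 0 were higher and 10 lower, where 49.6% of all tested genes were lower. Nck2, an adaptor that links receptors to actin and is found in many cells, rose by 0.92 (standard error 0.12, adjusted p = 9.47e-04, edgeR), from 17.3 ± 1.48 to 32.7 ± 5.11 CPM (SD, n = 4 each). Bcl10, which carries the signal towards NF-kappaB, rose by 0.44 (adjusted p = 0.00885), and the next smallest p was that of the adaptor Lcp2, at 0.33 (adjusted p = 0.0663). Rasgrp1, which activates Ras, fell by 0.44 (adjusted p = 0.0298). Sos1, another activator of Ras, was at -0.38 (adjusted p = 0.106). On total counts alone Bcl10 was at -0.35, Nck2 stayed above 0 at 0.15, and Rasgrp1 stayed below 0.

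In the calcium arm of the pathway, 2 of 13 genes rose, 1 fell and 10 did not pass (median -0.10). Over all tested genes 10.4% rose and 3.69% fell. On total counts alone 0 of the 13 were higher and 7 lower, where 49.6% of all tested genes were lower. Orai1, the pore of the calcium channel that opens when stores are empty, rose by 0.70 (adjusted p = 0.00402, edgeR), and Stim1, the sensor that opens it, by 0.35 (adjusted p = 0.0309). Itpr1, a channel that releases the stores, fell by 0.61 (adjusted p = 0.0248), with Itpr3 at -0.48 (adjusted p = 0.0503), Orai2 at -0.39 (adjusted p = 0.0535) and Ppp3r1, a subunit of calcineurin, at 0.25 (adjusted p = 0.162). On total counts alone Orai1 and Stim1 turned to -0.06 and -0.43.

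Of 16 genes listed as inhibitors of the pathway, not all of which only inhibit it, 1 rose and 15 did not pass (median -0.10). Over all tested genes 10.4% rose and 3.69% fell. On total counts alone 0 were higher and 10 lower, where 49.6% of all tested genes were lower. The gene that rose was Ubash3b, a phosphatase that is also abundant in platelets and myeloid cells. It was at 0.67 (adjusted p = 0.00853, edgeR) and at -0.07 on total counts alone. Lax1, an adaptor that dampens the signal, was at -0.35 (adjusted p = 0.0567), Cblb, a ubiquitin ligase, at -0.35 (adjusted p = 0.0889), Dgka at -0.34 (adjusted p = 0.0989), Dok1 at 0.45 (adjusted p = 0.0686) and Dok2 at 0.22 (adjusted p = 0.267).

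Of 17 genes that receptor signalling induces, 15 were tested, and 1 rose and 1 fell (median -0.09), where 10.4% of all tested genes rose and 3.69% fell. Of the 15, 0 were higher and 8 lower on total counts alone, where 49.6% of all tested genes were lower. Cd44, named next, was at 0.16 on that scale (adjusted p = 0.667, edgeR). Cd44, an adhesion receptor of activated T cells and of myeloid cells, rose by 0.89 (adjusted p = 0.00109, edgeR), and Egr3, a transcription factor of the early response, fell by 0.78 (adjusted p = 0.0197). Irf4 was at -0.31 (adjusted p = 0.0626), Cd40lg at -0.41 (adjusted p = 0.135), Myc at 0.23 (adjusted p = 0.164) and Egr1 at 0.40 (adjusted p = 0.184). Cd69 and Nr4a1, which rise within hours of receptor engagement, were at -0.06 and -0.15 (adjusted p = 0.864 and 0.609). The cytokine genes Il2 and Ifng had 0 to 5 and 4 to 12 counts per sample and were not tested, too few for a change to be detected.

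Relatives of these genes in other blood cells were listed beside them. Fcer1g and Tyrobp, which carry the signalling motif for receptors of myeloid and NK cells as Cd247 does in T cells, rose by 0.83 (26.6 ± 5.09 to 47.3 ± 7.25 CPM) and by 0.93 (20.5 ± 4.53 to 38.9 ± 4.22 CPM; SD, n = 4 each), with adjusted p-values of 0.00299 and 0.00199 (edgeR). Of the Src family, to which Lck belongs, Lyn and Src rose by 0.49 and 0.87 (adjusted p = 0.0124 and 0.0347) and Blk, a kinase of B cells, fell by 0.51 (adjusted p = 0.00745). Syk, the relative of Zap70 in B cells and myeloid cells, was at 0.02 (204 ± 21.9 and 208 ± 16.9 CPM; SD, n = 4 each, adjusted p = 0.923), Lat2, the relative of Lat, at -0.25 (adjusted p = 0.186) and Yes1 at -0.01 (adjusted p = 0.992). In all, 4 of these 11 genes rose, 1 fell and 6 did not pass, where 10.4% of all tested genes rose and 3.69% fell. No difference between them and the 10 receptor genes was tested. With total counts as the only scaling 0 were higher and 3 lower, where 49.6% of all tested genes were lower. On that scale Fcer1g and Tyrobp were at 0.04 and 0.20 and Lyn was at -0.27. The constant regions of the receptor's own variable chains (Trac, Trbc1, Trbc2 and their gamma and delta counterparts) were not analysed here.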

How the data were processed

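The table deposited by the authors gives raw counts by gene symbol, without normalization, in 1 column per sample. The submitters' processing notes name HISAT2, featureCounts and the build mm10, and their versions, the gene annotation and the use of strand are not given in the sources used here. Coordinates and exon lengths come from GENCODE M21 (GRCm38), matched by symbol for 10 of the 10 genes.

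A gene was tested where 4 or more samples had 10 or more counts, with R 4.3.3 and edgeR 4.0.16 (TMM, robust quasi-likelihood test, Benjamini-Hochberg adjustment), and rose or fell is written at an adjusted p below 0.05. Standard errors are the log2 fold change divided by the square root of F. Tested genes had a median of 342.5 counts in control and 168.5 in stress samples. On counts simulated for this comparison (11563 tested genes, of which 200 were changed by 1 on the log2 scale), 145 of the 200 were recovered, with 11 false calls. Ratios used counts plus 1 and scipy 1.17.1. Samples of a group differed by more than sampling noise (chi-square per degree of freedom 17.5 to 186).

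The alternatives were DESeq2 1.42.0, limma-voom (limma 3.58.1), other normalizations and count filters, an adjusted p below 0.01, a block for the replicate number and fits without each sample. Scaling by counts outside the haemoglobin genes was added after seeing the data. The 10 genes and all lists were chosen with earlier results of these data known. Named genes are the 10, up to 3 tested genes of each list with the smallest p in each direction, the genes of the ratios and the 5 genes closest to the mean pattern. Pou2f1, Syk, Cd2, Cd28, Tcf7, Lef1, Cd69, Nr4a1, Il2 and Ifng fall outside this rule and were named after their values were seen. Some genes of this rule in the lists of other cell types are left out for brevity, and 1 gene of the pathway is not reported here.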

Additional observations from a re-analysis of the deposited data

Results flagged for a closer look

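In each group of 4 samples, the gap between the most extreme sample and its nearest neighbour was set against the range of the group, and chance alone passes Dixon's 95% limit in about 1 in 20 groups. Of 48 groups, 5 passed. Zap70 in stress replicate 3 was at 30.6 CPM, against 21.1 to 22.6 CPM in the other stress samples. This sample also had the highest sum of NK cell markers, 157 CPM, of which 54.6 CPM came from Gzma alone. The part of NK cells in the Zap70 value was not tested. The log2 ratio of Zap70 to Cd3e was -1.03 in control replicate 1, against -0.88 to -0.86 in the other control samples. Stress replicate 2 had a log2 ratio of Cd3e to Cd79a of -1.54 (others -2.42 to -2.33) and of Cd3e to Itga2b of -4.33 (others -4.67 to -4.65). The log2 ratio of Cd3e to Ncr1 was 2.05 in control replicate 4, against 2.63 to 2.74 in the other control samples.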

How the results depend on the processing

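The count of 0 members called in either direction held under RLE and upper-quartile factors, without the haemoglobin genes, under both other count filters, DESeq2, limma-voom, the replicate block and each of the 8 fits that left out a sample. In those 8 fits the median log2 fold change of the members lay between -0.02 and 0.10. Only scalings without such factors changed the count. An adjusted p below 0.01 on the main fit could only give 0 again, since it is the stricter cutoff. On total counts alone 5 members fell and the members' median was -0.81, where 49.6% of all tested genes were lower and their median was -0.82. Cd3d (-0.68), Cd3g (-0.74), Lat (-0.54), Zap70 (-0.76) and Lck (-0.70) turned below 0. On counts outside the haemoglobin genes 4 members fell and the members' median was -0.39. On that scale 33.7% of all tested genes were lower and their median was -0.43. Cd3d, Cd3g, Lat, Zap70 and Lck were there at -0.26, -0.31, -0.10, -0.35 and -0.28. By construction these scales differ from TMM by a shift common to all genes within each sample, and the change in the fold change differs between genes. Over all genes, 1654 passed an adjusted p below 0.05, against 5863 on total counts, 4497 on counts outside the haemoglobin genes, 576 at an adjusted p below 0.01 and 698 to 2056 with a sample left out (698 without control replicate 2, 792 without control replicate 3). In the fixed lists 83 genes passed on total counts against 53 with TMM.

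Leaving out a sample turned the sign of fold changes near 0, with ranges of -0.11 to 0.052 for Cd3e, -0.10 to 0.023 for Cd247 and -0.046 to 0.16 for Zap70. Log2 ratio differences ranged from -0.056 to 0.032 for Cd247 to Cd3e, from -0.15 to 0.040 for Cd4 to Cd3e, from -0.12 to 0.078 for Cd8a to Cd4 and from -0.016 to 0.28 for Cd3e to Cd79a. With a sample left out the exact test cannot go below 0.0571, and 4 to 6 ratios had no overlap. The share without overlap was not computed for ratios of all genes. Samples with the same replicate number did not deviate together (correlations of -0.16 to 0.06), so the numbers were not taken as pairs. With the replicate block 0 members and 1159 genes passed, and the median of the members was 0.01. With 4 samples a group, the intervals of the members still hold log2 fold changes from -0.36 to 0.73.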
